A study of Mus musculus with 14 samples.

Results

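The genes described here mark the mural cells of blood vessels, that is the smooth muscle cells of arteries and arterioles and the pericytes of capillaries. They are Acta2, Tagln, Myh11, Cnn1, Smtn, Rgs5, Pdgfrb, Cspg4, Notch3 and Kcnj8. Their readings were taken by symbol: every probe set (a group of short probes that together read 1 transcript) annotated to exactly 1 of these 10 symbols was used, which gave 19 of the 45101 probe sets on the array. Testing was limited to probe sets with log2 values over 5.75 (the median of all deposited values) in 3 or more arrays, and 16 of the 19 passed. All 16 were above that value in every one of the 14 arrays, so none of them passed through 1 group alone. The other 3, a pair for Acta2 and 1 for Myh11, were dim, and each gene had at least 1 tested probe set.

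Left ventricles came from male C57BL/6 mice that either lacked Hspb8, the gene of the small heat shock protein Hsp22 (also called H11 kinase), or carried its wild-type form. Some hearts were taken 3 days after transverse aortic constriction (TAC), which narrows the aorta and raises the pressure the ventricle works against, and others in the basal state. The groups were 4 knockout arrays after TAC (TAC KO), 4 wild-type arrays after TAC (TAC WT), 3 basal knockout arrays (basal KO) and 3 basal wild-type arrays (basal WT). No group is labelled as sham-operated, and the sources used here give neither the part of Hspb8 that was removed nor the age of the mice. Since they do not tie arrays to single animals either, p-values measure the spread between these samples only.

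Mural cells wrap the endothelial tube, and their contraction sets vessel diameter. Contractile smooth muscle is recognised by its own actin (Acta2) and myosin heavy chain (Myh11) and by actin-binding proteins such as transgelin (Tagln), calponin (Cnn1) and smoothelin (Smtn). The genes of this contractile programme are classic targets of serum response factor and its partner myocardin, which act through a DNA element called the CArG box, and activated fibroblasts also switch on part of it, Acta2 above all. Pericytes are recognised by the PDGF receptor beta (Pdgfrb), the proteoglycan NG2 (Cspg4), the G-protein regulator Rgs5 and a potassium channel subunit (Kcnj8), and both mural cell types carry the receptor Notch3.

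On 2 of its 3 probe sets, Hspb8 lay between 4.27 and 5.92 in the 7 knockout arrays and between 10.26 and 12.29 in the 7 wild-type arrays, as labelled. The third, of class x, whose probes can match other genes, read 8.20 to 8.84 in knockout and 8.79 to 10.01 in wild-type arrays, so the genotypes overlapped on it. Array medians ran from 5.70 to 5.80. Across all probe sets, which are not independent replicates, arrays of 1 group correlated with each other at r of 0.967 or more. By the names of the array files, the TAC arrays form a run of their own, and of the basal arrays only basal KO 3 belongs to a different day. Run and surgery therefore cannot be told apart in any contrast of TAC with basal hearts, whereas the genotypes were compared within a run, apart from basal KO 3. In whole-ventricle RNA, fewer cells of a type and less RNA per cell cannot be told apart either.

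The first question was how mural genes differed between pressure-loaded and basal ventricles of each genotype. After TAC the contractile genes divided: Smtn and Myh11 were lower in both genotypes, Acta2 was higher in the knockout, and Tagln and Cnn1 did not pass in either. Among the genes of pericytes and mural cell signalling, Cspg4 rose and Notch3 fell in both genotypes, and Pdgfrb rose on 1 of its 2 probe sets. In limma, with Benjamini-Hochberg adjustment over the 24525 tested probe sets of the array, 9 of 16 member probe sets passed an adjusted p of 0.05 in the knockout (4 higher and 5 lower), where 43.2% of all probe sets passed (23% higher and 20.2% lower). In the wild type 7 of 16 passed (3 higher and 4 lower), where 50.2% of all did (27.8% higher and 22.4% lower). Over all probe sets the balance of directions moved with the scaling: 53.1% of the calls in the knockout and 55.4% of those in the wild type were higher as deposited, against 46.4% and 45.6% after quantile normalization and 55.7% and 64.8% with arrays centred on their medians. The members were called about as often as probe sets in general. Their median log2 difference was -0.42 in the knockout and -0.17 in the wild type, beside medians of 0.00 and 0.04 over all probe sets. Rgs5 alone gave 4 of the 16, and with 1 probe set per gene the medians over the 10 genes were 0.07 in the knockout, where the sign turned, and -0.08 in the wild type.

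**Figure D1:**
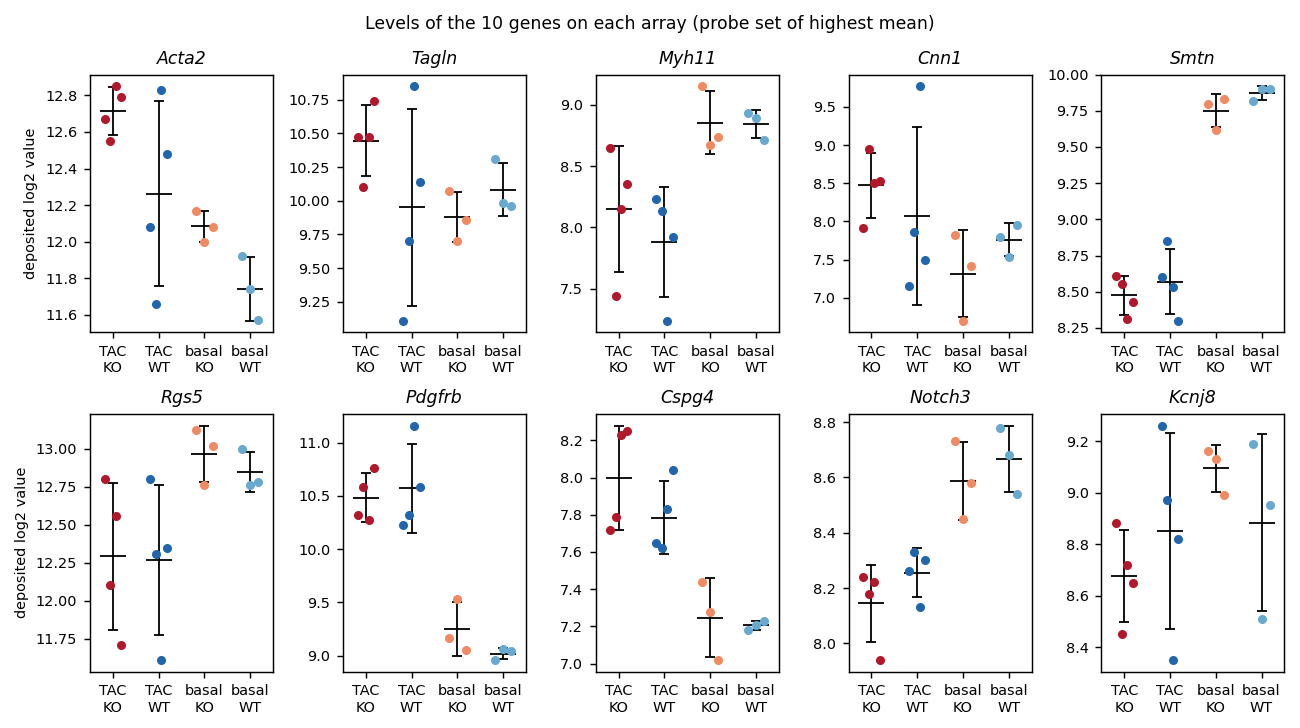
Deposited log2 values of the 10 genes on each of the 14 arrays, on the probe set of highest mean per gene; points are arrays, horizontal bars are group means and whiskers are SDs (n = 4 in the TAC groups and n = 3 in the basal groups). Axes differ between genes and do not start at 0. All 8 TAC arrays lie below all 6 basal arrays for Smtn and Notch3 and above them for Pdgfrb and Cspg4, while the TAC WT arrays of Cnn1 span 7.16 to 9.77.

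Smtn, an actin-associated protein found in contractile smooth muscle, had the largest drop among the 16 member probe sets. It read 8.61, 8.55, 8.31 and 8.43 in TAC KO arrays, against 9.80, 9.62 and 9.83 in basal KO arrays. It read 8.60, 8.85, 8.53 and 8.30 in TAC WT arrays, against 9.82, 9.90 and 9.90 in basal WT arrays. The highest TAC array, at 8.85, lay below the lowest basal array, at 9.62. The gene was 2.42-fold lower after TAC in the knockout (log2 -1.27, SE 0.13, adjusted p = 6.41e-05 in limma) and 2.47-fold lower in the wild type (log2 -1.30, SE 0.13, adjusted p = 3e-05).

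Myh11, the smooth muscle myosin heavy chain, was lower as well, with a wider spread among TAC hearts. TAC KO arrays read 8.65, 7.44, 8.15 and 8.35, against 9.15, 8.67 and 8.74 in basal KO arrays. TAC WT arrays read 8.23, 8.13, 7.24 and 7.92, against 8.93, 8.89 and 8.71 in basal WT arrays. Groups of the same genotype did not overlap, although TAC KO 1 lay just under basal KO 2. The gene fell 1.95-fold in the wild type (log2 -0.96, SE 0.27, adjusted p = 0.0098 in limma), and this call held in all 25 alternatives, with adjusted p from 0.00387 to 0.0337. In the knockout it fell 1.63-fold (log2 -0.71, SE 0.27, adjusted p = 0.047), a call lost in 13 of 25 alternatives, 11 of which left out a single array (adjusted p 0.0515 to 0.168). Without TAC KO 2, the lowest array of its group, the Myh11 difference in the knockout was log2 -0.47 (adjusted p = 0.123). The dim second probe set of Myh11 read between 3.80 and 4.39 in every array and was not tested.

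Acta2, smooth muscle actin, went the other way from Myh11 and Smtn in the knockout. Its tested probe set read 12.67, 12.55, 12.85 and 12.79 in TAC KO arrays, against 12.17, 12.00 and 12.08 in basal KO arrays. It read 12.08, 11.66, 12.83 and 12.48 in TAC WT arrays, against 11.92, 11.74 and 11.57 in basal WT arrays. TAC KO arrays formed a tight set above all basal arrays, while TAC WT arrays ranged from within the basal values to the TAC KO level. The gene was 1.55-fold higher after TAC in the knockout (log2 0.63, SE 0.21, adjusted p = 0.0267 in limma), a call lost when any 1 of basal KO 1, 2 or 3 or TAC KO 3 or 4 was left out (adjusted p 0.0516 to 0.0807). In the wild type the difference was log2 0.52 (SE 0.21, adjusted p = 0.0528), which did not pass. The wild-type difference of Acta2 passed without TAC WT 1 (adjusted p = 0.0429), without TAC WT 2 (log2 0.72, adjusted p = 0.00496) and with arrays centred on their medians (adjusted p = 0.0317). It was log2 0.33 without TAC WT 3 (adjusted p = 0.139) and log2 0.18 with array weights (adjusted p = 0.427), the highest of 24 alternatives. This probe set is of class s, whose probes can match more than 1 gene, and it is the only bright one for Acta2. Smooth muscle gamma actin, Actg2, a close relative, differed by log2 0.36 in the knockout (adjusted p = 0.0581) and rose in the wild type (log2 0.61, adjusted p = 0.00422).

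The start of Acta2 (chromosome 19, 34240336 to 34255585 in GRCm38.p6, minus strand) carries the elements through which serum response factor is known to act, and it is shown with the starts of 2 other contractile genes for which the RefSeq promoter table held an entry, Cnn1 (chromosome 9, 22099221 to 22109221) and Smtn (chromosome 11, 3517522 to 3539292). Each window holds 250 bases before and 50 bases after an annotated start site, 5′ to 3′ on the gene's own strand, and capitals mark CArG boxes: CC, then 6 bases of which at most 1 is G or C, then GG. The windows are chr19:34255324-34255623 for Acta2, chr9:22099003-22099302 for Cnn1 and chr11:3539243-3539542 for Smtn.
Acta2: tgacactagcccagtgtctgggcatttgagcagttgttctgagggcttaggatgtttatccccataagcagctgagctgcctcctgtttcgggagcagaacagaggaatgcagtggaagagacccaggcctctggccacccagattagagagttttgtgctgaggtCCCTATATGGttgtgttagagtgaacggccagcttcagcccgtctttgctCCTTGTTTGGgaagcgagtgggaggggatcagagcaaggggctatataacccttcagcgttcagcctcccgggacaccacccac
Cnn1: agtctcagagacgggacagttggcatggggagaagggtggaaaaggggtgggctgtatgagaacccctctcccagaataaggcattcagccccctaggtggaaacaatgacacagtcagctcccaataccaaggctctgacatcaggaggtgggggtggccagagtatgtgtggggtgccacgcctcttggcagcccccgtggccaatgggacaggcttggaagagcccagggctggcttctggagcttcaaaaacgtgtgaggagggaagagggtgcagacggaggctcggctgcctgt
Smtn: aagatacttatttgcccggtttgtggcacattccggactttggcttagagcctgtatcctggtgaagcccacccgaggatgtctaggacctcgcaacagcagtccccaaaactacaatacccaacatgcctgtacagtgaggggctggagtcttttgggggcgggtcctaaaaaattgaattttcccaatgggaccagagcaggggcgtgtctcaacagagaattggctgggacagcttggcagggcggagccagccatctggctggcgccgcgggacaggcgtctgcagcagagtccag
Acta2 has 2 such elements, CCCTATATGG starting 84 bases and CCTTGTTTGG starting 34 bases before the start site, each with 1 G or C inside. Both elements, at 34255448 to 34255457 and 34255398 to 34255407, lie inside the Acta2 span given above, which reaches 34255585. The start site of this window therefore lies inside the span too, and the distances hold for that annotated site only. Of the 32851 mouse promoter windows in the table, 9.98% held at least 1 element on the definition above, which reads the same on both strands. At least 2 were held by 0.822%. The windows of Cnn1, Smtn, Rgs5, Cspg4, Notch3 and Kcnj8 held none, which says only that these letters are not in these 300 bases. Windows for Tagln, Myh11 and Pdgfrb were not used here.

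Tagln, or transgelin, which binds actin filaments, and Cnn1, or calponin, which damps actomyosin activity, showed no call after TAC in either genotype. Tagln read 10.47, 10.10, 10.47 and 10.74 in TAC KO arrays, against 10.07, 9.70 and 9.86 in basal KO arrays. The 4 TAC KO arrays lay above the 3 basal KO arrays, though TAC KO 2 only just cleared basal KO 1. The Tagln difference was log2 0.57 (SE 0.30, adjusted p = 0.136 in limma), with a 95% interval from -0.07 to 1.21. In the wild type TAC arrays read 9.11, 9.70, 10.85 and 10.14, against 10.31, 9.98 and 9.96 in basal arrays, so that TAC WT arrays lay on both sides of the basal ones. The wild-type difference of Tagln was log2 -0.13 (SE 0.30, adjusted p = 0.725), and log2 -0.43 without TAC WT 3 (adjusted p = 0.137).

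Cnn1 read 7.91, 8.95, 8.50 and 8.53 in TAC KO arrays, against 7.82, 6.70 and 7.42 in basal KO arrays. It read 7.16, 7.86, 9.77 and 7.49 in TAC WT arrays, against 7.80, 7.53 and 7.95 in basal WT arrays. The knockout groups did not overlap, whereas in the wild type TAC WT 3 stood alone above basal levels. The difference was log2 1.16 in the knockout (SE 0.48, adjusted p = 0.0666 in limma) and log2 0.31 in the wild type (SE 0.48, adjusted p = 0.609). Without TAC WT 3 the Cnn1 spread shared by all groups was smaller, and the knockout difference passed (SE 0.27, adjusted p = 0.00392) while the wild-type difference changed sign to log2 -0.26 (adjusted p = 0.487). Cnn1 in the knockout also passed without TAC WT 1 (adjusted p = 0.0467), with array weights (adjusted p = 0.00388) and with knockout arrays alone (adjusted p = 0.00816), and over 25 alternatives its adjusted p ran from 0.00388 to 0.235. Tagln in the knockout passed without TAC WT 3 (adjusted p = 0.0414), with array weights (adjusted p = 0.0228) and with knockout arrays alone (adjusted p = 0.0154), within a range of 0.0154 to 0.299.

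**Figure D2:**
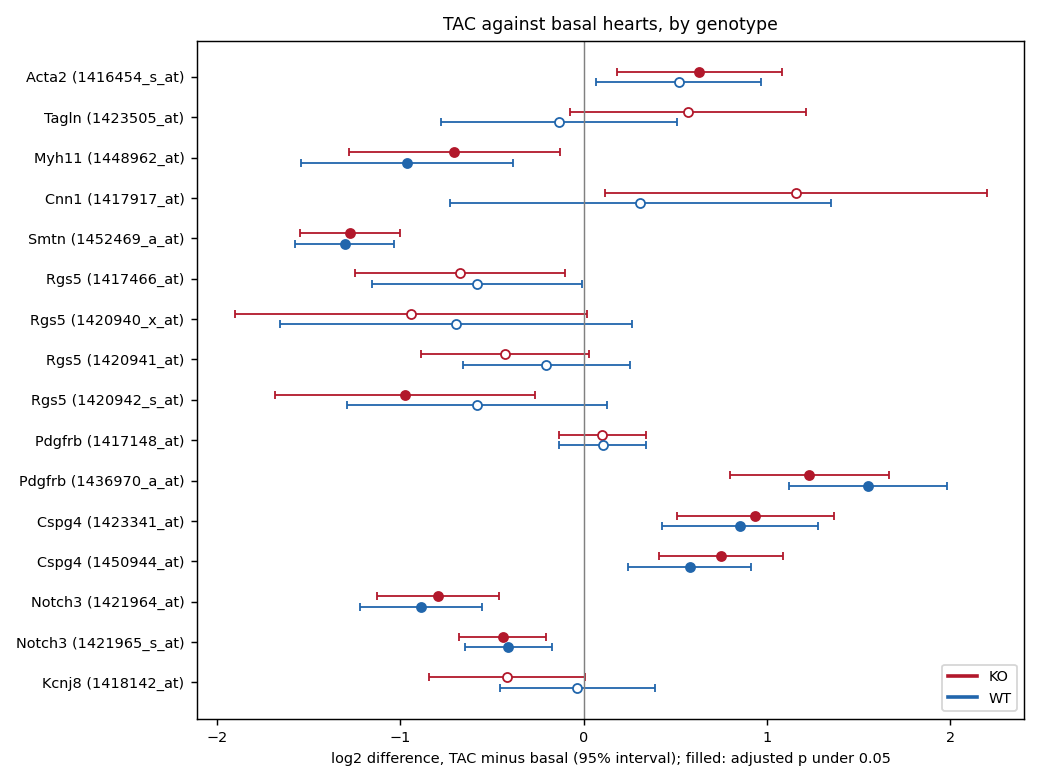
Log2 difference, TAC minus basal, for the 16 tested probe sets of the 10 genes in knockout (red) and wild-type hearts (blue), with 95% intervals from limma; filled points have an adjusted p under 0.05. Smtn, Myh11 and Notch3 lie left of 0 and Cspg4 and 1 Pdgfrb probe set lie right of 0 with filled points in both genotypes.

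Among the genes of pericytes and mural signalling, Pdgfrb, the receptor through which PDGF-B from endothelium recruits pericytes, gave 2 different readings. The brighter one read 10.32, 10.58, 10.27 and 10.76 in TAC KO arrays, against 9.17, 9.53 and 9.05 in basal KO arrays. It read 10.23, 10.32, 11.16 and 10.58 in TAC WT arrays, against 8.96, 9.06 and 9.04 in basal WT arrays. All 8 TAC arrays lay above all 6 basal arrays. This reading of Pdgfrb rose 2.35-fold in the knockout (log2 1.23, SE 0.20, adjusted p = 0.000651 in limma) and 2.93-fold in the wild type (log2 1.55, SE 0.20, adjusted p = 0.000108). The other probe set stayed between 8.21 and 8.63 in all 14 arrays, with differences of log2 0.10 in the knockout (95% interval -0.13 to 0.34) and log2 0.10 in the wild type (95% interval -0.13 to 0.34). The part of the transcript that each probe set reads is not given in the files, so which of them follows the Pdgfrb message (chromosome 18, 61045127 to 61085067) was not tested. Fibroblasts also carry this receptor.

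Cspg4, the NG2 proteoglycan on the surface of pericytes and immature mural cells, rose on both of its probe sets. The brighter one read 7.72, 7.79, 8.23 and 8.25 in TAC KO arrays, against 7.44, 7.28 and 7.02 in basal KO arrays. It read 7.65, 7.62, 7.83 and 8.04 in TAC WT arrays, against 7.18, 7.21 and 7.23 in basal WT arrays. The increase was 1.68-fold in the knockout (log2 0.75, SE 0.16, adjusted p = 0.00254 in limma) and 1.49-fold in the wild type (log2 0.58, SE 0.16, adjusted p = 0.00861). The second probe set rose 1.92-fold (adjusted p = 0.00275) and 1.81-fold (adjusted p = 0.00365), so that both readings of Cspg4 gave the same direction in both genotypes.

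Notch3, the Notch receptor needed for arterial smooth muscle to mature, fell on both probe sets. The brighter one read 8.24, 8.18, 8.22 and 7.94 in TAC KO arrays, against 8.73, 8.45 and 8.58 in basal KO arrays. It read 8.26, 8.33, 8.13 and 8.30 in TAC WT arrays, against 8.78, 8.68 and 8.54 in basal WT arrays. Every TAC array was below every basal array. The difference was log2 -0.44 in the knockout (SE 0.11, adjusted p = 0.00681 in limma) and log2 -0.41 in the wild type (SE 0.11, adjusted p = 0.00815). The dimmer probe set of Notch3, the one whose probes match no other gene by class, fell further, 1.73-fold in the knockout (adjusted p = 0.00178) and 1.85-fold in the wild type (adjusted p = 0.000676).

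Rgs5, which shortens signalling of G-protein-coupled receptors in pericytes and arterial smooth muscle, had 4 tested probe sets. All 4 had lower means after TAC in both genotypes, by log2 -0.43 to -0.97 in the knockout and by log2 -0.20 to -0.69 in the wild type. Only 1 of these 8 differences passed, that of the probe set of class s in the knockout (log2 -0.97, SE 0.33, adjusted p = 0.0294 in limma). It read 11.20, 10.25, 10.78 and 9.89 in TAC KO arrays, against 11.77, 11.25 and 11.49 in basal KO arrays. The call was lost without any 1 of basal KO 1 or 3 or TAC KO 2 or 4 (adjusted p 0.069 to 0.104). The brightest Rgs5 probe set read 12.80, 12.10, 12.56 and 11.71 in TAC KO arrays, against 13.12, 12.76 and 13.02 in basal KO arrays (log2 -0.67, adjusted p = 0.0548). In wild type it read 12.80, 12.31, 11.61 and 12.35 in TAC arrays, against 13.00, 12.76 and 12.78 in basal arrays (log2 -0.58, adjusted p = 0.0842). In each genotype TAC array 1 lay within the basal values of Rgs5 and the other 3 lay below them. That probe set passed in the knockout without TAC WT 3 (adjusted p = 0.0227), TAC KO 1 (adjusted p = 0.023) or TAC WT 1 (adjusted p = 0.0355). It also passed there after quantile normalization (adjusted p = 0.0445), with knockout arrays alone (adjusted p = 0.038) and with array weights (adjusted p = 0.0312). Over 25 alternatives its adjusted p in the knockout ran from 0.0227 to 0.156. In the wild type it passed without TAC WT 1 (log2 -0.76, adjusted p = 0.0243), as the probe set of class s did (adjusted p = 0.0472). The probe set of class x passed in the knockout with the replicate block alone (adjusted p = 0.0368).

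Kcnj8, which encodes the pore subunit Kir6.1 of the ATP-sensitive potassium channel of vessels, did not pass in either genotype. It read 8.88, 8.45, 8.72 and 8.65 in TAC KO arrays, against 9.16, 9.13 and 8.99 in basal KO arrays. These groups did not overlap, and the difference was log2 -0.42 (SE 0.20, adjusted p = 0.1 in limma, and 0.0463 without TAC WT 3, within a range of 0.0202 to 0.211 over 25 alternatives). In wild type Kcnj8 read 9.26, 8.97, 8.35 and 8.82 in TAC arrays, against 9.19, 8.51 and 8.95 in basal arrays. The wild-type groups overlapped throughout (log2 -0.03, 95% interval -0.46 to 0.39). Over all members, the TAC and basal arrays did not overlap for 12 of 16 probe sets in the knockout, where 52.4% of all probe sets did not, and for 7 of 16 in the wild type, where 49.6% did not.

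The second question was whether loss of Hspb8 altered mural genes. In TAC hearts 0 of 16 member probe sets differed between knockout and wild type at an adjusted p of 0.05 in limma, where 0.0285% of all probe sets did, and 1 had an unadjusted p under 0.05, that of Acta2, where 8.18% of all had one (0.0204% of all passed the adjusted threshold on the higher side). The arrays of both genotypes overlapped for all 16, where 4.19% of all probe sets did not overlap. In basal hearts 0 of 16 passed, where 0.00815% of all did, and 0 had an unadjusted p under 0.05, where 5.7% of all did. After TAC, Acta2 was log2 0.45 higher in the knockout (SE 0.19, 95% interval 0.04 to 0.87, adjusted p = 0.58). The TAC KO arrays read 12.55 to 12.85 and the TAC WT arrays 11.66 to 12.83, with TAC WT 3 inside the knockout range. Without TAC WT 3 the Acta2 difference was log2 0.64 (adjusted p = 0.0968), and with array weights it was log2 0.86 (adjusted p = 0.00726). Those weights were estimated from the scatter of the arrays themselves and were largest for TAC KO 3 (4.19) and TAC WT 2 (2.65). For Acta2 these were the highest TAC KO array, at 12.85, and the lowest TAC WT array, at 11.66. Over 24 alternatives the adjusted p of this Acta2 difference ran from 0.00726 to 0.974. The mean of 12 fibroblast markers was higher in the knockout too, at 11.17 to 11.36 in TAC KO arrays, against 10.59 to 10.85 in TAC WT arrays, although 0 of the 12 passed singly, and its part in the Acta2 difference was not tested.

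The other contractile genes did not have an unadjusted p under 0.05. After TAC the difference, knockout minus wild type, was log2 0.49 for Tagln (95% interval -0.10 to 1.09), log2 0.40 for Cnn1 (-0.56 to 1.37), log2 0.27 for Myh11 (-0.27 to 0.80) and log2 -0.09 for Smtn (-0.35 to 0.16). With array weights Tagln was at log2 0.71 (adjusted p = 0.0225 in limma), the only other member that passed in that setting. Over 25 alternatives the adjusted p of Tagln ran from 0.0225 to 0.993. Without TAC WT 3 the differences of Tagln and Cnn1 were log2 0.80 (adjusted p = 0.11) and log2 0.97 (adjusted p = 0.12). In this fit 0 of 16 member probe sets passed. For the genes of pericytes and mural signalling the intervals lay within log2 -0.71 and 1.09 after TAC, and the narrowest, on the dimmer Pdgfrb probe set, ran from -0.27 to 0.16.

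In basal hearts the Acta2 arrays of both genotypes did not overlap, at 12.17, 12.00 and 12.08 in basal KO, against 11.92, 11.74 and 11.57 in basal WT (log2 0.34, SE 0.22, adjusted p = 0.97 in limma). The fibroblast markers averaged 10.61 to 10.86 in basal KO arrays, against 10.02 to 10.54 in basal WT arrays, again without overlap, and their part was not tested. Acta2 was the only one of 16 member probe sets without overlap, beside 13% of all probe sets. For the remaining genes the basal difference ran from log2 -0.45 for Cnn1 (95% interval -1.56 to 0.67) to log2 0.45 for 1 probe set of Rgs5 (-0.57 to 1.48). A term for the day of basal KO 3, which holds that array alone, amounts to leaving the array out and cannot measure a day effect. With it 0 of 16 passed. The change after TAC was also compared between the genotypes in the same model, and 0 of 16 member probe sets passed (0 of all 24525 did). In that comparison 0 members had an unadjusted p under 0.05, where 7.9% of all probe sets had one. The estimates farthest from 0 were those of Cnn1, at log2 0.85 more in the knockout (95% interval -0.62 to 2.32, adjusted p = 0.812), and Tagln, at log2 0.70 more (-0.21 to 1.61, adjusted p = 0.719). The calls of Acta2 in the knockout alone and of Rgs5 in the knockout alone are therefore not shown to differ from the wild type.

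**Figure D3:**
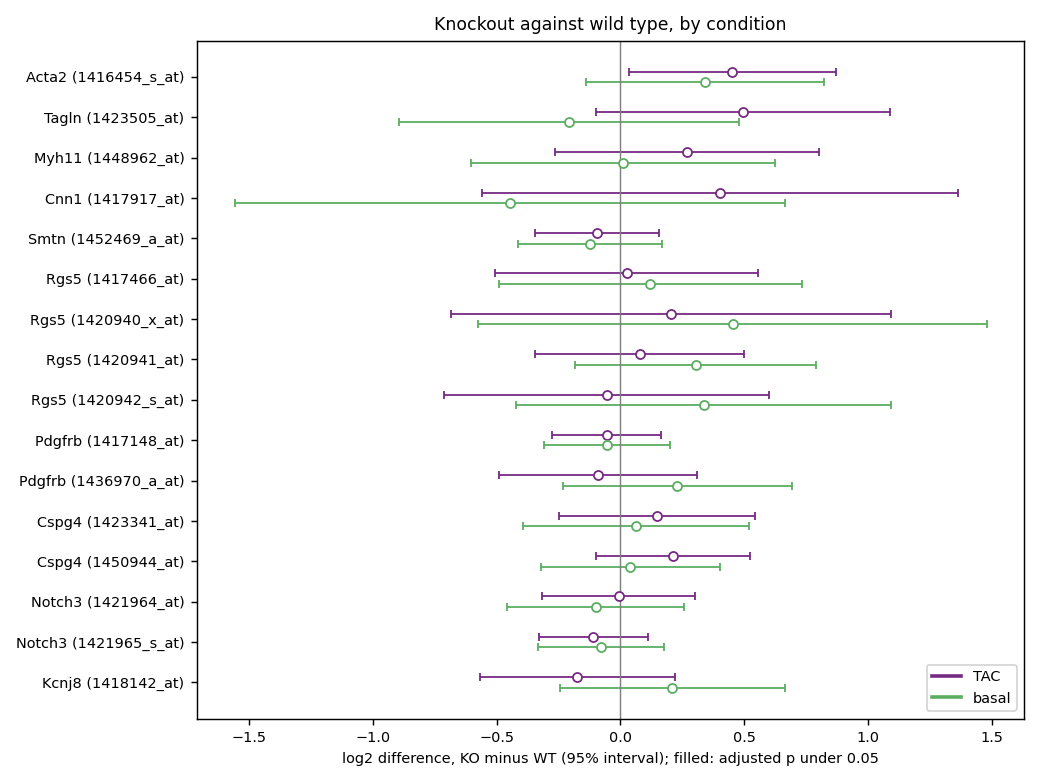
Log2 difference, knockout minus wild type, for the 16 tested probe sets in TAC hearts (purple) and basal hearts (green), with 95% intervals from limma; no point is filled because none has an adjusted p under 0.05. The interval of Acta2 after TAC, 0.04 to 0.87, is the only one that does not include 0.

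TAC WT 3 lay above its group mean by 1.70 for Cnn1, 0.90 for Tagln, 0.59 for Pdgfrb and 0.57 for Acta2 on the log2 scale, and below it by -0.66 for Rgs5, -0.64 for Myh11 and -0.50 for Kcnj8. TAC WT 1 deviated the opposite way for the same 7 genes, by -0.91 for Cnn1, -0.84 for Tagln and 0.53 for Rgs5. In TAC KO arrays the deviations were smaller, up to 0.58 in size apart from Myh11 in TAC KO 2 (-0.71). Smtn, Cspg4 and Notch3 stayed within 0.28 of their group means in all 14 arrays. For Acta2 the lowest array of the group was TAC WT 2, at -0.60, in which Myh11 lay 0.25 above its group mean.

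**Figure D4:**
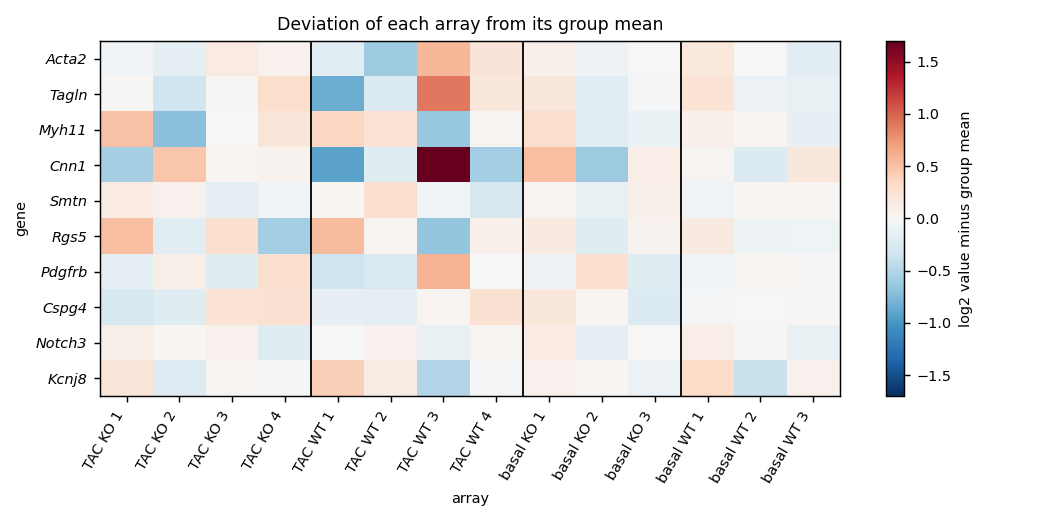
Deviation of each array from its group mean in log2 units (red above, blue below) for the 10 genes, on the probe set of highest mean; vertical lines separate TAC KO, TAC WT, basal KO and basal WT arrays. The darkest cell is Cnn1 in TAC WT 3, at 1.70, and the lowest values are those of Cnn1 (-0.91) and Tagln (-0.84) in TAC WT 1.

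TAC WT 3 was also the highest array in macrophage markers, while for activated fibroblast markers it lay inside the TAC KO range. TAC WT 1 was the lowest TAC array for both. The mean log2 value of 10 macrophage markers was 10.74 in TAC WT 3 and 9.11 in TAC WT 1. It ran from 10.01 to 10.23 in TAC KO arrays, 8.81 to 8.94 in basal KO arrays and 8.42 to 8.68 in basal WT arrays. The 12 markers of activated fibroblasts averaged 10.83 in TAC WT 3 and 8.74 in TAC WT 1, with 10.27 to 10.94 in TAC KO, 7.56 to 7.95 in basal KO and 7.10 to 7.39 in basal WT arrays. Of these fibroblast markers 11 of 12 rose after TAC in the knockout, where 23% of all probe sets did. In the wild type 11 rose and 1 fell, where 27.8% and 22.4% of all did. Periostin (Postn) was log2 2.83 higher in knockout and log2 2.91 higher in wild-type hearts. The part of the activated fibroblast markers in the readings of Acta2, Tagln, Cnn1 and Pdgfrb, which fibroblasts can also express, was not tested. The 10 cardiomyocyte markers averaged between 13.91 and 14.31, with the lowest value in TAC WT 3. Atrial muscle markers, 8 in number, averaged 7.66 to 9.54 in TAC KO, 7.50 to 10.01 in TAC WT, 8.66 to 11.43 in basal KO and 10.62 to 10.99 in basal WT arrays, and their part in any mural reading was not tested.

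The genes whose array-to-array deviations were most like those of Myh11, among 12250 other genes and over the 14 arrays after each group mean was subtracted, were Dtnbp1 (r = 0.95, rho = 0.93), Mustn1 (r = 0.91, rho = 0.85), Slc12a2 (r = 0.91, rho = 0.88), Steap4 (r = 0.90, rho = 0.82) and Sult5a1 (r = 0.89, rho = 0.77). These are the top of a long ranking over arrays that share their runs, and no p is given. Without TAC WT 3 their r ran from 0.83 to 0.93. Mustn1 was on the list of other smooth muscle genes and Steap4 on that of other pericyte genes.

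Other genes of the contractile apparatus were read from a list of 28, of which 26 were tested, each on its brightest probe set (Kcnmb1 and Npnt lay below the filter). In the knockout 11 rose after TAC and 2 fell, where 43.2% of all probe sets were called (23% higher and 20.2% lower). In the wild type 10 rose and 3 fell, where 50.2% of all were called (27.8% higher and 22.4% lower). The median differences were log2 0.68 in the knockout and log2 0.38 in the wild type. Without TAC WT 3 the counts were 13 and 2 in the knockout and 9 and 1 in the wild type. Caldesmon (Cald1), which restrains actomyosin in smooth muscle and other cells, rose 3.04-fold in the knockout (adjusted p = 0.000485 in limma) and 2.96-fold in the wild type (adjusted p = 0.000364). Calponin 3 (Cnn3), found in many cell types, rose 2.29-fold and 2.38-fold. The myosin phosphatase subunit Ppp1r12a rose 1.85-fold in the knockout and 2.12-fold in the wild type, and the adhesion protein vinculin (Vcl) 2.08-fold and 1.90-fold. Sorbs2, an adaptor also abundant in heart muscle, rose 1.78-fold and 2.02-fold.

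The smooth muscle leiomodin Lmod1 fell 1.88-fold in the knockout (adjusted p = 0.00181 in limma) and 1.84-fold in the wild type (adjusted p = 0.00169). The other genes of this list that fell were Ppp1r12c in both genotypes and Mustn1 in the wild type. Synpo2 rose by log2 0.69 in the knockout (adjusted p = 0.00423) and log2 0.60 in the wild type (adjusted p = 0.00743). Ppp1r14a was counted as higher in the knockout (adjusted p = 0.0165) and did not pass in the wild type (adjusted p = 0.077). Its mean log2 values were 6.26 in TAC KO and 6.05 in TAC WT arrays. They were 5.54 in basal KO and 5.57 in basal WT arrays, both below the filter value, so no fold is given and its call supports nothing. Many of the genes that rose on this list are also made outside smooth muscle, as Vcl, Sorbs2, Cnn3 and alpha-actinin 1 (Actn1, 4.44-fold in the knockout and 3.27-fold in the wild type) are. In the knockout against the wild type 0 of 26 passed after TAC and 0 of 26 in basal hearts, where 0.0285% and 0.00815% of all probe sets did.

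Of 12 tested regulators of the contractile programme, 2 rose and 3 fell in the knockout after TAC, and 2 rose and 2 fell in the wild type. Without TAC WT 3 the wild-type counts were 4 and 3, in a fit whose share over all probe sets is not given here. The share called over all probe sets was 43.2% in the knockout and 50.2% in the wild type, so these counts do not set the list apart. The myocardin-related cofactor Mrtfb was higher in both, 1.53-fold in the knockout (adjusted p = 0.00447 in limma) and 1.34-fold in the wild type (adjusted p = 0.0246). Its relative Mrtfa went the other way, at log2 -0.54 in the knockout (adjusted p = 0.0104) and log2 -0.25 in the wild type, which did not pass (adjusted p = 0.169). Csrp2, a LIM protein of smooth muscle, was 3.62-fold higher in the knockout (adjusted p = 0.00155), and Klf4, a repressor of the contractile genes, was 1.64-fold lower there (adjusted p = 0.0348). In the wild type Csrp2 was 1.81-fold higher (adjusted p = 0.0582) and Klf4 1.44-fold lower (adjusted p = 0.095), and neither difference between the genotypes passed (adjusted p = 0.655 and 0.942). Foxo4 fell in both, by log2 -0.61 in the knockout and by log2 -0.85 in the wild type. Prrx1 differed by log2 -0.15 in the knockout (adjusted p = 0.243) and rose by log2 0.46 in the wild type (adjusted p = 0.00296), a gap that did not pass (adjusted p = 0.427).

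Genes that signal to mural cells moved in both directions. On a list of PDGF, Notch and angiopoietin genes, 8 of 23 rose and 6 fell in the knockout, where 43.2% of all probe sets were called. In the wild type 8 rose and 6 fell, where 50.2% of all were called. Jag1, the Notch ligand of endothelium and smooth muscle, rose 2.38-fold in the knockout (adjusted p = 8.73e-05 in limma) and 1.93-fold in the wild type (adjusted p = 0.00021), while the ligand Jag2 fell 1.95-fold and 2.05-fold and the endothelial ligand Dll4 fell 2.02-fold and 1.57-fold. Notch1 fell 1.94-fold in the knockout and 1.61-fold in the wild type, as Notch3 did, whereas Notch2 rose 1.65-fold and 1.99-fold. The PDGF ligand Pdgfa rose 1.57-fold and 1.71-fold. Pdgfb, the endothelial ligand of Pdgfrb, fell by 0.58 on the log2 scale in the knockout (adjusted p = 0.012) and differed by log2 -0.24 in the wild type (adjusted p = 0.231), a gap between genotypes that did not pass (adjusted p = 0.76).

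Of 16 other pericyte genes tested, 3 rose and 2 fell in the knockout after TAC, and 1 rose and 4 fell in the wild type. Without TAC WT 3 the wild-type counts were 2 and 3, in a fit whose share over all probe sets is not given here. The falls include Cox4i2 in both genotypes, with means of 5.365 in TAC KO and 5.43 in TAC WT arrays. They also include Anpep in the wild type, with a mean of 5.73 in TAC WT arrays. These means lay below the filter value, so no fold is given and these calls support nothing. Over all probe sets 43.2% were called in the knockout and 50.2% in the wild type. The adhesion molecule Mcam, present on pericytes, smooth muscle and endothelium, rose 2.16-fold in the knockout (adjusted p = 0.000422 in limma) and 1.59-fold in the wild type (adjusted p = 0.00538). Ndufa4l2 differed by log2 -0.35 in the knockout (adjusted p = 0.0514) and fell 1.51-fold in the wild type (adjusted p = 0.00338). Vitronectin (Vtn), which marks brain pericytes, fell 2.06-fold and 1.92-fold, and the potassium channel subunit Kcne4 rose 2.02-fold in the knockout (adjusted p = 0.000613), against log2 0.12 in the wild type (adjusted p = 0.573), a gap that did not pass either (adjusted p = 0.444). In the list of markers of endothelium, the cells that mural cells cover, 8 of 15 fell in the knockout, where 20.2% of all probe sets did. In the wild type 9 fell and 1 rose, where 22.4% and 27.8% of all did. Tie1 was 2.86-fold lower in the knockout and 2.03-fold lower in the wild type. The mean log2 value of the 15 markers was 8.71 to 8.95 in TAC KO and 8.76 to 9.07 in TAC WT arrays. It was 9.27 to 9.30 in basal KO and 9.20 to 9.35 in basal WT arrays, so that TAC and basal arrays did not overlap. The part of this shift in the falls of Notch3 and Myh11 was not tested.

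**Figure D5:**
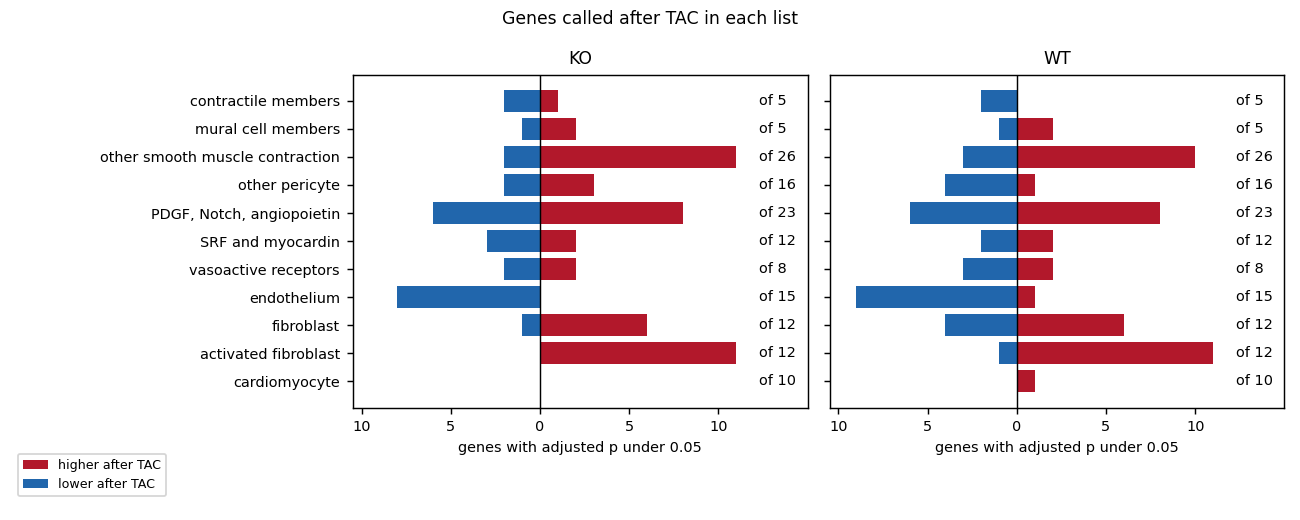
Number of genes with an adjusted p under 0.05 after TAC in each list, in knockout (left) and wild-type hearts (right); bars to the right count genes that were higher and bars to the left genes that were lower, and the number tested stands at the right. Other smooth muscle contraction genes show 11 higher and 2 lower in the knockout and 10 higher and 3 lower in the wild type. The counted calls of Ppp1r14a, Cysltr1, Cox4i2 and, in the wild type, Anpep come with a lower group mean below the filter value. Over all probe sets of the array, 43.2% were called in the knockout and 50.2% in the wild type.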

How the data were processed

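Left ventricular RNA (Trizol, biotin label, per the labels) was measured on 14 mouse arrays. The authors deposited 1 log2 value per probe set and array, made with RMA per the submitters' processing notes. The sources used here give neither the RMA version nor which arrays were run jointly. No counts or depth exist for arrays, and their number limits the precision. Of 45101 probe sets, 34958 had 1 symbol in the platform annotation, 932 several and 9211 none, and 34754 symbols were matched by gene number to RefSeq genes of GRCm38.p6. The 64 control probe sets were left out. RMA quantile normalization forces arrays onto a common scale, so differences are relative to the other probe sets.

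Probe sets above 5.75, the table median, in at least 3 arrays were kept (24525). One linear model over the 4 groups was fitted to all 14 arrays with limma 3.58.1 in R 4.3.3, followed by eBayes (10 residual and 3.73 prior degrees of freedom). It was tested on simulated data with known changes. P-values were adjusted over all kept probe sets. Standard errors (SE) and 95% intervals come from this model. Genes of the other lists, and genes with several probe sets where 1 is needed, were read on the kept probe set of highest mean. Named genes were the members on every probe set, Hspb8, genes taken from the 4 with the smallest p per list and comparison, and the 5 genes most like Myh11. Not all genes of smallest p are named. Lmod1, Actn1, Actg2, Synpo2, Ppp1r14a, Ppp1r12c, Pdgfa, Pdgfb and Cox4i2 were added after their values were seen. The members and lists were chosen with earlier results of these data known. Alternatives covered the filter, the probe sets per gene, the scaling, the arrays fitted, the prior, array weights, the replicate number, the run, the probe class and leaving out each array. The counts of the other lists without TAC WT 3 were added after the data had been seen. Sequences are from RefSeq, GRCm38.p6.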

Additional observations from a re-analysis of the deposited data

How the results depend on the processing

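Across the alternatives, 1931 values of single member probe sets were recomputed. Of these, 1815 kept their sign and their side of the threshold, 22 lost a call, 24 gained one, and 0 called values changed sign. A further 70 values that passed in neither setting changed sign, the largest being Cnn1 in wild-type hearts after TAC without TAC WT 3. The number of member probe sets called after TAC in the wild type was 7 in the main analysis and 7 to 10 when single arrays were left out. In the knockout it was 9, with 6 (without basal KO 1) to 13 (without TAC WT 3) when single arrays were left out. For fits without a single array, the share over all probe sets is not given here. The knockout count was 13 with array weights, where 13428 of all 24525 probe sets were called. It was also 13 with the 7 arrays of the comparison alone, where 11744 were called, against 10593 in the main analysis. Between genotypes after TAC the count was 0 and went to 2, Acta2 and Tagln, with array weights. These gave TAC WT 3 the lowest weight of all arrays (0.222) and TAC KO 3 (4.19) and TAC WT 2 (2.65) the highest. That setting called 2956 probe sets of the array, against 7 in the main analysis. Leaving out single arrays kept it at 0, as it did in basal hearts and for the difference of knockout effects. Over all probe sets, counts with no filter were 17860 in the wild type after TAC and 13100 in the knockout, against 12300 and 10593, because more probe sets were tested. Taking 1 probe set per gene, or averaging those of each gene, called 5 of 10 genes in the wild type and 6 of 10 in the knockout. Of all 12260 genes, these settings called 6214 and 6341 in the wild type and 5451 and 5562 in the knockout. With no filter 8 probe sets were called in the wild type, the added one being a dim probe set of Acta2, called lower after TAC. In the knockout the count stayed at 9 (4 higher and 5 lower) although Myh11 lost its call, so a dim probe set was called lower there as well. The replicate block called 7 member probe sets in the wild type, 10 in the knockout and 0 in the other comparisons. Of all 24525 probe sets it called 11165 in the wild type and 9379 in the knockout. The labels do not say that a number marks a shared litter or day, so the numbers were not taken as pairs in the main analysis. Deviations of same-numbered arrays correlated at r from -0.13 to 0.58 over 19 pairs, 2 of them above 0.1. Both of these were TAC KO with TAC WT, at r = 0.58 for number 1 and r = 0.50 for number 4. Numbers 2 and 3 of these groups were at r = -0.02 and r = -0.08.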

Other observations

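Receptors for vasoactive hormones, through which mural cells are told to contract or relax, were measured for 8 of 15 listed genes. In the knockout after TAC 2 rose and 2 fell, where 43.2% of all probe sets were called. In the wild type 2 rose and 3 fell, where 50.2% of all were called. Adra1b, an alpha-1 adrenergic receptor, fell 2.29-fold in knockout hearts (adjusted p = 0.00259 in limma) and 2.72-fold in wild-type hearts (adjusted p = 0.000625). Calcrl, the receptor that binds CGRP or adrenomedullin, rose 1.82-fold and 2.39-fold, while its partner Ramp1, which makes it a CGRP receptor, fell 2.15-fold (adjusted p = 0.00234) and 2.45-fold (adjusted p = 0.000704). The other receptor counted as higher, the leukotriene receptor Cysltr1, passed the filter through its TAC arrays alone, with mean log2 values of 6.90 in TAC KO and 6.56 in TAC WT arrays, against 5.35 in basal KO and 5.23 in basal WT arrays, both below the filter value, so no fold is given and its call supports nothing.

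Of the 2 dim probe sets of Acta2, 1 read 6.19 in TAC KO 4 and at most 5.21 in the other arrays, so it passed the filter value in that array alone. The other was below the filter value in every array, and read at most 4.42 in TAC KO and 4.47 in TAC WT arrays, against at least 4.65 in basal KO and 4.55 in basal WT arrays. Its basal values were the higher ones, unlike those of the bright Acta2 probe set in the knockout.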
